A study of Mus musculus with 6 samples.

Results

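The signal peptidase and TRAM genes were examined as a set of 7: the signal peptidase genes Spcs1, Spcs2, Spcs3, Sec11a and Sec11c, and Tram1 and Tram2. They were chosen by name, and each of the 7 symbols matched 1 Ensembl identifier among the 49584 of the count table through GENCODE vM21. All 7 passed the filter on low counts, as did 13474 genes in all. The data were 6 Smart-seq2 libraries, a method that amplifies full-length cDNA from few cells, made from poly(A) RNA of mouse leptotene and zygotene spermatocytes, which are in early meiotic prophase. The cells were sorted from testes at postnatal day 12. Of the libraries, 3 were from mice of genotype Srp68 SKO and 3 from wild type mice. The SRP68 protein belongs to the signal recognition particle (SRP), which carries ribosomes to the endoplasmic reticulum (ER) when they begin a secretory or membrane protein. The labels name no other allele, no strain and no treatment, and the sources used here do not give how the knockout was made or in which cells. The comparison asked how transcripts of the machinery that receives SRP's cargo differed between SKO and wild type cells.

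Signal peptidase is the ER membrane enzyme that cuts the signal peptide from a nascent protein as it emerges from the Sec61 channel. SEC11A and SEC11C are alternative catalytic subunits, and SPCS1, SPCS2 and SPCS3 are the other subunits of the complex. SPCS3 is needed for activity, SPCS2 touches the Sec61 channel, and SPCS1 helps the enzyme tell signal peptides from membrane-spanning segments. TRAM1, the translocating chain-associating membrane protein, sits beside the channel and aids the entry of some signal sequences, and its paralog TRAM2 has been linked to collagen synthesis.

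The libraries held 11.9 to 15.4 M counts, 3 counts corresponded to 0.174 to 0.289 CPM (counts scaled to a library of 1 M), and CPM include TMM factors (a correction for differences in RNA composition between libraries). Srp68 was at 21.7, 29.3 and 22.6 CPM in wild type and 12.1, 6.52 and 6.93 CPM in SKO libraries, lower in the libraries labelled SKO. Counts are per gene, so exons outside a deleted part could still be counted. Among markers of the labelled cell type, 9 of 9 were detected, and their summed level was 17546 to 22479 CPM in wild type and 26279 to 33805 CPM in SKO. Markers of pachytene and later cells summed to 54.3 to 75.8 CPM in wild type and 14.6 to 19.7 CPM in SKO, spermatogonial markers to 136 to 167 and 122 to 155 CPM, and Sertoli markers to 37.8 to 48.3 and 20.5 to 101 CPM. Leydig markers, of which Cyp11a1 and Cyp17a1 were at 0, summed to 0.58 to 6.6 CPM in wild type and 4.86 to 9.03 CPM in SKO. Myoid markers, of which Des was at 0, summed to 1.04 to 2.36 CPM in wild type and 4.44 to 13.3 CPM in SKO. Macrophage markers summed to 1.8 to 2.26 and 1.86 to 29.9 CPM, and endothelial markers to 0.387 to 0.869 and 0.77 to 1.49 CPM. By the test described in the next paragraph, 7 of 9 tested leptotene and zygotene markers were higher in SKO and 1 lower. Of 4 tested pachytene and later markers, 1 was higher and 2 were lower. Of the tested spermatogonial, Sertoli and Leydig markers 0 were called, while the only tested myoid and macrophage markers were higher. Of all tested genes, 14.1% were higher and 14.4% lower. The part of these differences in the results below was not tested, and in bulk samples fewer cells of a type and less RNA per cell cannot be told apart. Whether replicates were separate animals is not stated, so p-values reflect the variation among these libraries, which could be technical.

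The transcripts of the signal peptidase complex did not move as a block. Spcs2 rose 1.58-fold in SKO spermatocytes, Spcs1 fell to 74.3% of its wild type mean, and the catalytic subunit genes and Spcs3 did not pass the test. By the quasi-likelihood test of edgeR (Benjamini-Hochberg adjusted across the whole table, threshold 0.05), 1 of the 7 genes was higher and 1 lower. Of all tested genes, 14.1% were higher, 14.4% lower and 28.5% called in either direction, so the share of called genes in the set was near that of the background. The median log2 fold change of the 7 genes was 0.26, beside −0.03 over all tested genes. At an unadjusted p under 0.05 there were 5 of the 7, beside 39% of all tested genes. Groups did not overlap for 4 of the 7 genes, Spcs2 and Sec11c with SKO higher and Spcs1 and Tram2 with SKO lower, beside 21.6% of all tested genes with SKO higher, 22.2% with SKO lower and 43.8% in either direction.

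Spcs2 (ENSMUSG00000035227; GRCm38 chromosome 7, 99837569 to 99863462, minus strand) encodes an accessory subunit. Its level was 339, 280 and 357 CPM in wild type replicates 1 to 3 and 493, 505 and 547 CPM in SKO replicates 1 to 3, from 4833 to 5991 counts per library. Every SKO library lay above every wild type library, and the SKO mean of 515 ± 28.3 CPM stood against 325 ± 40.2 CPM in wild type (SD, n = 3 per genotype). The log2 fold change was 0.66 (SE 0.11), with an adjusted p of 0.00046 in edgeR. Scaled by library totals alone, without TMM factors, it was 0.40 (adjusted p = 0.00571).

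Spcs1 (ENSMUSG00000021917; GRCm38 chromosome 14, 30999826 to 31001672, minus strand) encodes the smallest of the accessory subunits. It was at 447, 433 and 560 CPM in wild type and 326, 353 and 392 CPM in SKO libraries, from 3788 to 8551 counts. The groups did not overlap, and wild type replicate 3 was the highest library. The means were 480 ± 69.6 CPM in wild type and 357 ± 33.4 CPM in SKO (SD, n = 3 per genotype), and the log2 fold change was −0.43 (SE 0.12; edgeR adjusted p = 0.0142). The call was lost without wild type replicate 3 (−0.30; edgeR adjusted p = 0.0601) or without SKO replicate 2 (−0.42; 0.0605). The fold change was −0.69 with library totals and −0.79 once the GC content and length trends of the libraries were taken out, with the call held under both. Of the exon length of Spcs1, 16.3% overlaps Glt8d1, a glycosyltransferase-family gene on the opposite strand. Glt8d1, named after its values were seen, fell from 197 ± 20.7 to 93.5 ± 8.13 CPM with an edgeR adjusted p of 2.78e-05 (log2 fold change −1.07), and its share in the counts of Spcs1 was not tested.

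The promoters of these subunit genes are shown because Spcs1 and Spcs2 were the members that passed the test, in opposite directions. Both are from RefSeq on GRCm38.p6, run 5′ to 3′ on the minus strand from 250 bases before to 50 after a start of transcription, and capitals mark CCAAT and CCACG on either strand, the parts of the ER stress element bound in the unfolded protein response.
Spcs1, chr14:31001617-31001916: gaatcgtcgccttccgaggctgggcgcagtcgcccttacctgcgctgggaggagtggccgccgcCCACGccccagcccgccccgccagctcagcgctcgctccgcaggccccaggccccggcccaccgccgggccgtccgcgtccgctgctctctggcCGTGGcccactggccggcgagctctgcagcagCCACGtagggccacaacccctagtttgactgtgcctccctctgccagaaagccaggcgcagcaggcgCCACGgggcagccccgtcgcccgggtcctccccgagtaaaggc
Spcs2, chr7:99858834-99859133: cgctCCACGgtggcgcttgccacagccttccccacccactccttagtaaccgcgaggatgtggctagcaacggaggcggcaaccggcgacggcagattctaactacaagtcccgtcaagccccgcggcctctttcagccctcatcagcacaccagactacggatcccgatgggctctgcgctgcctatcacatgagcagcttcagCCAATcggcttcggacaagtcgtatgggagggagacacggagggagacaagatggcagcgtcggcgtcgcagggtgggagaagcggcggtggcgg
A promoter window was at hand for 4 of the 7 genes (Spcs1, Spcs2, Sec11a and Tram2). None of the 4 held, on either strand, the whole ER stress element ERSE (in 0.119% of all 32851 promoter windows), its variant ERSE-II (0.0365%), the unfolded protein response element TGACGTGG (0.676%), the cyclic AMP response element TGACGTCA (1.79%) or the amino acid response element TGATGNAAN (3.95%) and its core TGATGCAA (0.895%). The separate parts were searched after the sequences had been seen. CCACG occurred 4 times in the Spcs1 window, including 60 bases before and 7 bases after the start, and 1 time each in those of Spcs2, Sec11a and Tram2, while 32.8% of all windows held it. CCAAT occurred only in the Spcs2 window among these 4, 45 bases before the start, and in 37.4% of all windows. The GC content was 74.7% in the Spcs1 window and 63.3% in that of Spcs2, beside a median of 52.7% over all windows. These matches describe letters, not binding. The Spcs1 window lies within the span of Glt8d1 (31001400 to 31011991, plus strand), so its letters are not particular to Spcs1. The Spcs2 window lies inside the gene span given above, whose upstream end is at 99863462.

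**Figure D1:**
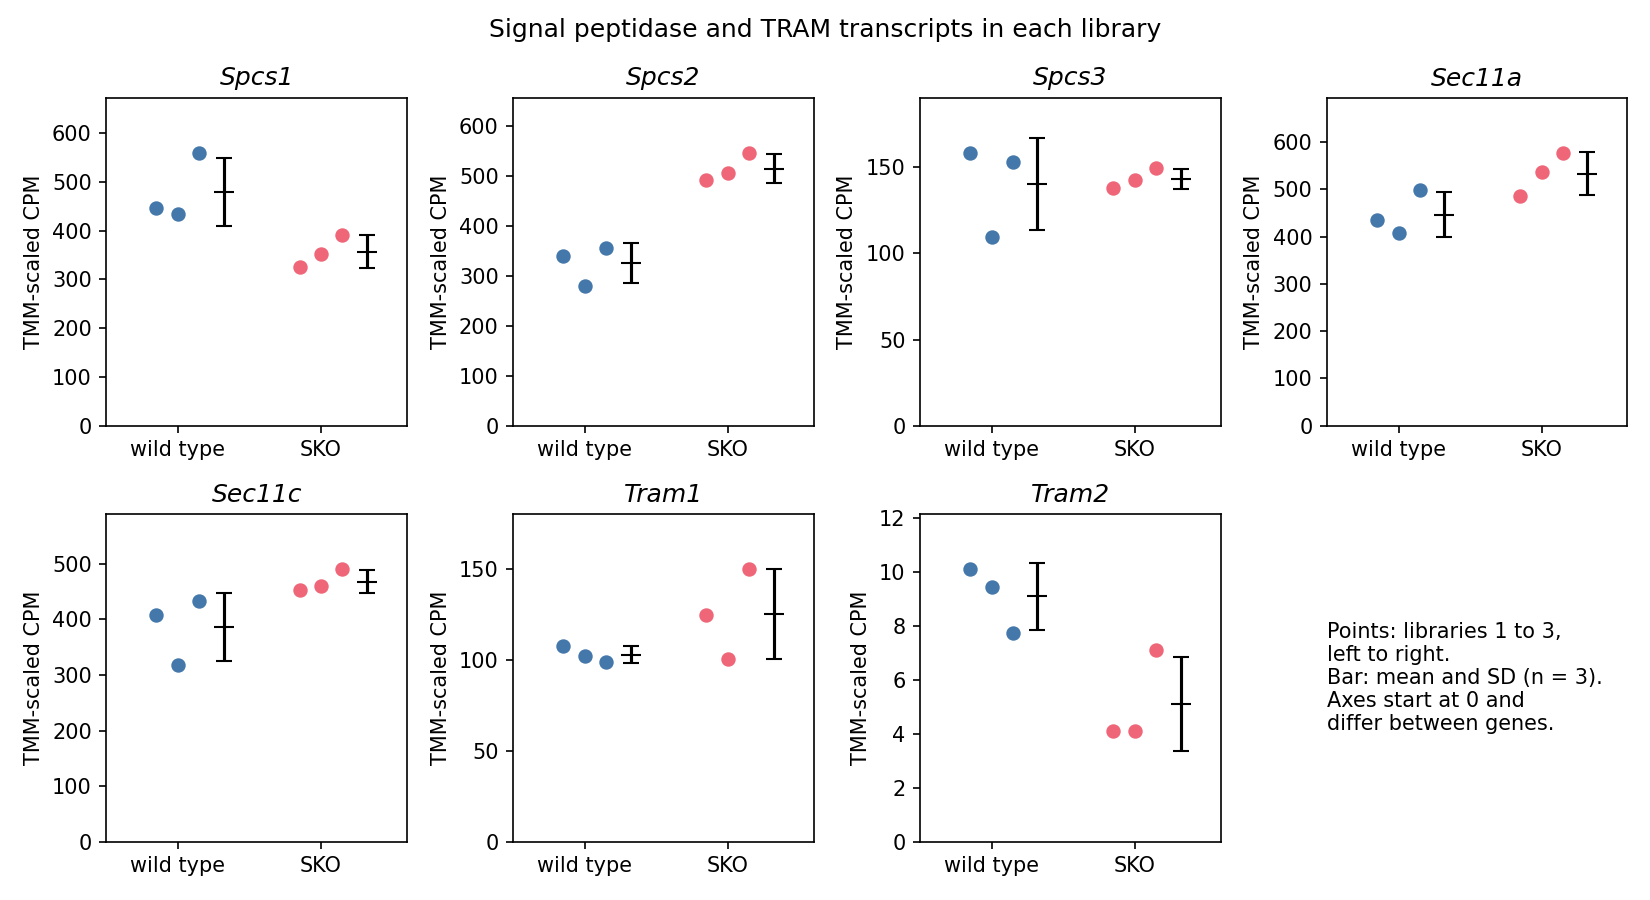
TMM-scaled CPM (y axis, from 0, on its own scale for each gene) of the 7 genes in each wild type and SKO library (x axis); points are libraries and bars the mean and SD of 3. Spcs2 is higher in all 3 SKO libraries (493 to 547 CPM, against 280 to 357), Spcs1 lower (326 to 392, against 433 to 560), and the groups overlap for Spcs3, Sec11a and Tram1.

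Spcs3 (ENSMUSG00000054408; chromosome 8, 54520433 to 54529998, minus strand), the accessory subunit needed for catalysis, was at 158, 109 and 153 CPM in wild type and 138, 142 and 150 CPM in SKO libraries. The SKO values lay inside the wild type range, which wild type replicate 2 set at its lower end. The log2 fold change was 0.03, with a 95% interval from −0.27 to 0.33 (edgeR adjusted p = 0.897). Its sign turned with library totals (−0.23) and with the correction for GC content and length (−0.27), and neither passed.

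Both catalytic subunit genes had SKO means slightly above wild type, 119% of it for Sec11a and 121% for Sec11c, and neither passed. Sec11a (ENSMUSG00000025724; chromosome 7, 80904889 to 80947780, minus strand) was at 434, 407 and 499 CPM in wild type and 487, 536 and 578 CPM in SKO libraries. SKO replicate 1 fell below wild type replicate 3, so the groups overlapped. Its log2 fold change was 0.26 (95% interval 0.03 to 0.49; edgeR adjusted p = 0.0924). Sec11c (ENSMUSG00000024516; chromosome 18, 65800515 to 65817684, plus strand) was at 407, 318 and 433 CPM in wild type and 454, 459 and 491 CPM in SKO libraries. The groups did not overlap, although wild type replicate 3 came close to the SKO values. Its log2 fold change was 0.28 (95% interval 0.03 to 0.53; edgeR adjusted p = 0.0933). Without wild type replicate 3, both genes passed (Sec11a 0.34, edgeR adjusted p = 0.0325; Sec11c 0.37, 0.0381), and with library totals they stood at −0.01 and 0.02, so the sign of the Sec11a difference and the size of both depended on the scaling.

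**Figure D2:**
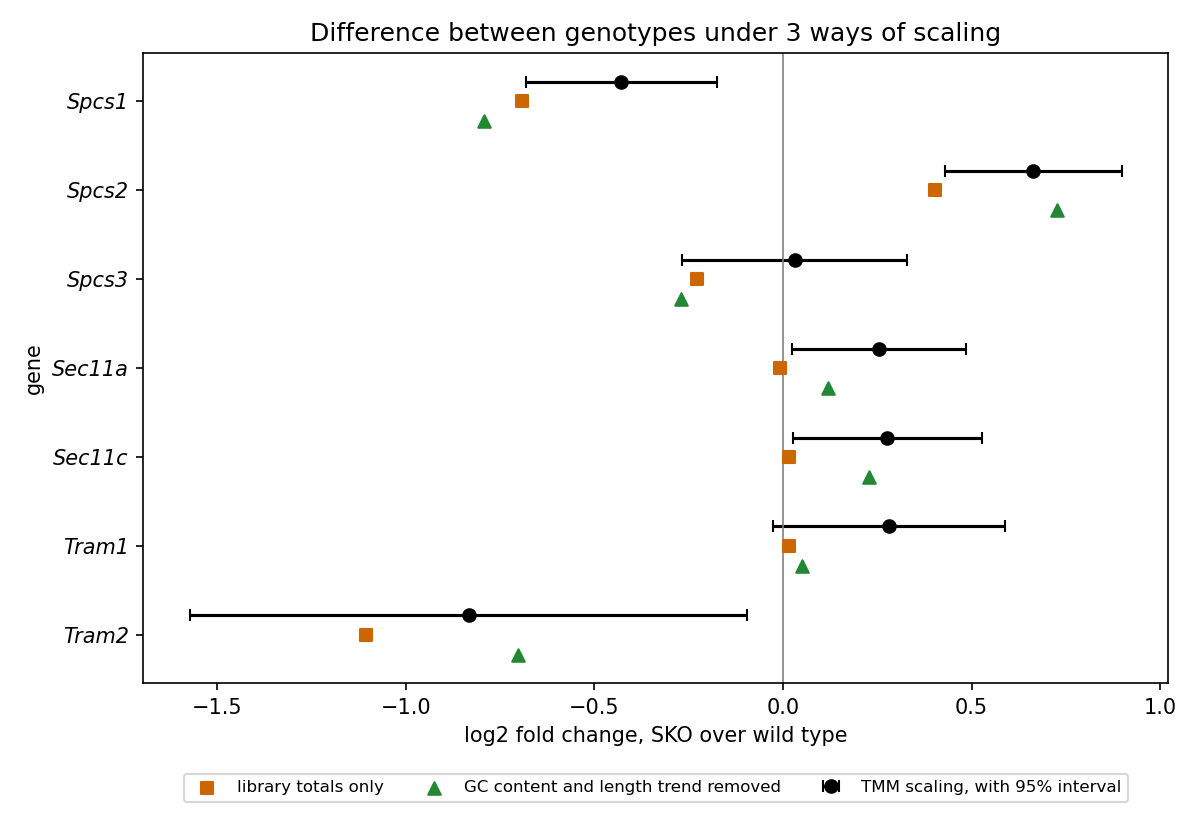
Log2 fold change, SKO over wild type (x axis), of each gene (y axis) with TMM scaling and its 95% interval (circles), with library totals only (squares) and with the GC content and length trends of the libraries removed (triangles). Spcs2 stays above 0 and Spcs1 and Tram2 below 0 under all 3, while Spcs3 and Sec11a change sign.

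Shares within the complex do not depend on the scaling between libraries. Spcs1 took 25.0%, 28.0% and 28.0% of the counts of the 5 signal peptidase genes in wild type and 17.2%, 17.7% and 18.2% in SKO libraries. Spcs2 took 19.0%, 18.1% and 17.8% in wild type and 26.0%, 25.3% and 25.4% in SKO libraries. The ratio of Spcs1 to Spcs2 counts, not corrected for the genes' lengths, averaged 1.48 in wild type and 0.691 in SKO, a log2 difference of −1.09 with no overlap between groups. Spcs3 took 7.86 ± 0.924% and 7.11 ± 0.167%, Sec11a 25.2 ± 1.01% and 26.4 ± 0.659%, and Sec11c 21.7 ± 1.13% and 23.2 ± 0.608% of these counts in wild type and SKO (SD, n = 3 per genotype). Relative to Spcs2, each of the other 4 subunit genes had a lower ratio in each SKO library than in any wild type library, as Spcs1 did: log2 ratios differed by −0.62 for Spcs3, −0.41 for Sec11a and −0.38 for Sec11c. These pairs were chosen after the values were seen and were given no test. Spcs2 had the highest log2 fold change of the 5 genes, so lower mean ratios to it restate the fold changes above. No share over all gene pairs was counted beside this lack of overlap. The 5 genes summed to 1779 ± 227 CPM in wild type and 2017 ± 131 CPM in SKO.

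The balance of the 2 catalytic subunit genes did not differ beyond the spread between libraries. Sec11c made up 48.4%, 43.9% and 46.5% of Sec11a and Sec11c counts in wild type and 48.2%, 46.2% and 45.9% in SKO libraries. The SKO values lay inside the wild type range. The log2 ratio of Sec11c to Sec11a was −0.22 ± 0.13 in wild type and −0.19 ± 0.07 in SKO (SD, n = 3 per genotype), with a two-sided exact permutation p of 1 (adjusted over the 2 paralog ratios tested, 1). With 3 libraries against 3 this test cannot give less than 0.1.

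**Figure D3:**
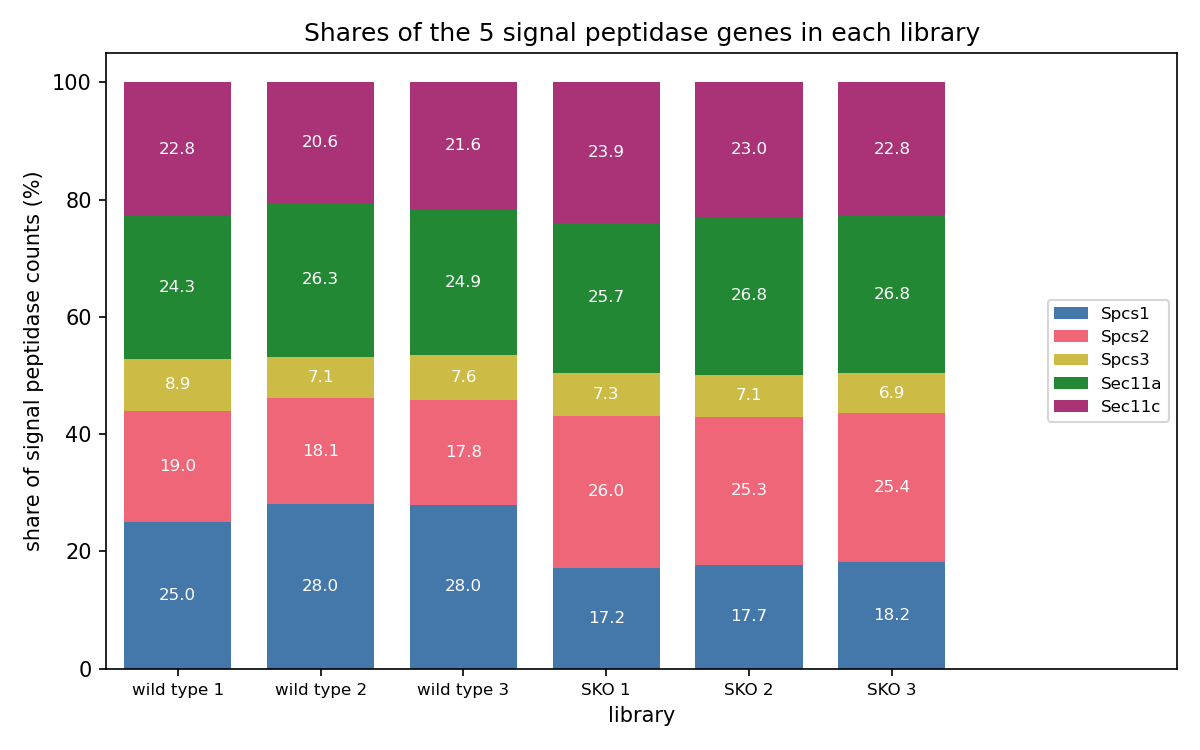
Share of the summed counts of the 5 signal peptidase genes (y axis, percent) taken by each gene in each library (x axis). The Spcs1 share is 25.0% to 28.0% in wild type and 17.2% to 18.2% in SKO, and the Spcs2 share 17.8% to 19.0% and 25.3% to 26.0%.

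Of the TRAM genes, Tram1 had the higher mean in SKO and Tram2 the lower, and neither passed the test. Tram1 (ENSMUSG00000025935; chromosome 1, 13564698 to 13589910, minus strand) was at 108, 102 and 98.6 CPM in wild type and 124, 100 and 150 CPM in SKO libraries. Wild type libraries lay close together, and SKO replicate 2 fell among them. The log2 fold change was 0.28 (95% interval −0.03 to 0.59; edgeR adjusted p = 0.165). Tram2 (ENSMUSG00000041779; chromosome 1, 20996299 to 21079229, minus strand) was far scarcer, with 157, 163 and 118 counts in wild type and 50, 44 and 74 in SKO libraries. That gave 10.1, 9.44 and 7.73 CPM in wild type and 4.11, 4.1 and 7.12 CPM in SKO. Every SKO library was below every wild type library, SKO replicate 3 by a small margin. The log2 fold change was −0.83 (SE 0.34; 95% interval −1.57 to −0.09; edgeR adjusted p = 0.0872). It passed with library totals (−1.11; edgeR adjusted p = 0.0252) and without SKO replicate 3 (−1.15; 0.0453).

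The share of Tram2 beside Tram1 was lower in each SKO library. Tram2 made up 8.58%, 8.47% and 7.27% of Tram1 and Tram2 counts in wild type and 3.2%, 3.92% and 4.53% in SKO libraries. The log2 ratio of Tram2 to Tram1 was −3.51 ± 0.14 in wild type and −4.64 ± 0.26 in SKO (SD, n = 3 per genotype), a difference of −1.14 with no overlap between groups. No share over all gene pairs was counted beside this lack of overlap, and among single tested genes 43.8% did not overlap in either direction. The ratio rests on 44 to 74 counts of Tram2 per SKO library. A two-sided exact permutation test gave its smallest possible p, 0.1, and 0.2 after adjustment over the 2 ratios.

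Per kilobase of annotated exon, Spcs1 was the most abundant of the 7 transcripts in both genotypes and Tram2 the least. Wild type levels, in CPM per kilobase, were 310 ± 45 for Spcs1, 96.8 ± 10.3 for Sec11a, 77.1 ± 9.52 for Spcs2, 56.7 ± 8.86 for Sec11c, 40.5 ± 7.75 for Spcs3, 32.5 ± 1.46 for Tram1 and 1.37 ± 0.185 for Tram2 (SD, n = 3). In that order only the ranges of Spcs3 and Tram1 overlapped. In SKO, Spcs2 (122 ± 6.71) stood next to Sec11a (116 ± 9.84) with overlapping ranges, and Spcs1 was at 231 ± 21.6. The order depends on the length used: with the principal transcript's length, chosen after the data were seen, Sec11c took the second place in wild type (449 ± 70.1, against 684 ± 99.2 for Spcs1 and 332 ± 35.2 for Sec11a) and the first in SKO (544 ± 23.3, against 508 ± 47.6 for Spcs1), although its range overlapped that of Sec11a in wild type and that of Spcs1 in SKO.

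Sequence shared between annotated transcripts was counted in runs of 50 bases on the same strand. Sec11a and Sec11c transcripts shared 0 runs of 50 bases, as did Tram1 and Tram2. Of the runs of 50 in Spcs2 transcripts, 3.28% also occurred in the pseudogene Spcs2-ps, which had at most 5 counts in any library. Sec11a shared 4.87% of its runs with other genes, among them its neighbour Nmb, which encodes the peptide neuromedin B and overlaps the end of Sec11a on the same strand. Nmb, named after its values were seen, went from 68.4 ± 7.05 to 34.5 ± 3.03 CPM. For Sec11c the shared part was 0.294%, and it was 0 runs for Spcs1, Spcs3, Tram1 and Tram2. These runs leave out overlap on the opposite strand, such as that of Spcs1 with Glt8d1 (16.3% of exon length) and of Spcs3 with Asb5 (2.16%).

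The genes that act before and beside signal peptidase moved in both directions. The counts below stand beside 14.1% higher and 14.4% lower among all tested genes. Of the 6 genes of the Sec61 channel and its partners Sec62 and Sec63, 5 were higher, 1 lower and 0 not passed (median log2 fold change 0.84): Sec61b, from 314 ± 17.5 to 609 ± 48.7 CPM, Sec61g, Sec62 and Sec63 rose, followed by the channel gene Sec61a1, while its paralog Sec61a2 fell from 186 ± 30.8 to 139 ± 8.89 CPM. Of the 4 genes of TRAP, the translocon-associated complex, 1 was higher (Ssr3, log2 fold change 0.82) and 3 lower (Ssr2 −1.02, Ssr4 −0.72 and Ssr1 −0.32; median −0.52). Of 9 tested SRP and SRP receptor genes, 3 were higher (Srp14 0.77, Srp19 0.64 and Srp9 0.63), 1 lower (Srp68 −1.52) and 5 not passed (median 0.26). The lower gene, Srp68, is the one named in the SKO genotype, so this set showed no fall apart from the targeted gene that passed. The Sec61 and TRAP sets thus each held called genes of both signs. In the signal peptidase set this was only 1 gene of each sign. There the call of Spcs1 was lost without wild type replicate 3 or without SKO replicate 2.

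Other membrane proteases and relatives were also counted. In the signal peptide peptidase family of intramembrane proteases, 1 of 4 tested genes was higher, Sppl2a, from 29.6 ± 8.76 to 47.2 ± 5.87 CPM (edgeR adjusted p = 0.0308). The signal peptide peptidase gene itself, H13 (also Hm13), was at 13.3 ± 2.66 and 12.2 ± 0.82 CPM (edgeR adjusted p = 0.761), and Sppl2c had 0 counts in every library. Both genes of the mitochondrial inner membrane peptidase, a distant relative of SEC11, rose: Immp1l from 711 ± 43.5 to 1155 ± 168 CPM (edgeR adjusted p = 0.000338) and Immp2l from 21.6 ± 4.66 to 40.5 ± 6.71 CPM (0.00489). Tram1l1, a relative of Tram1, had 3.92 ± 1.72 CPM in wild type and 1.82 ± 0.901 in SKO (log2 fold change −1.10; edgeR adjusted p = 0.169). Of 9 tested genes with the TLC domain that TRAM proteins share with ceramide synthases, 2 were higher (Tlcd1 0.88 and Cers5 0.55), 2 lower (the ceramide synthases Cers2 −2.47 and Cers3 −1.75) and 5 not passed (median 0.20). Over the 35 tested genes of all these lists, 14 were higher, 7 lower and 14 not passed, beside 14.1% higher and 14.4% lower of all tested genes.

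**Figure D4:**
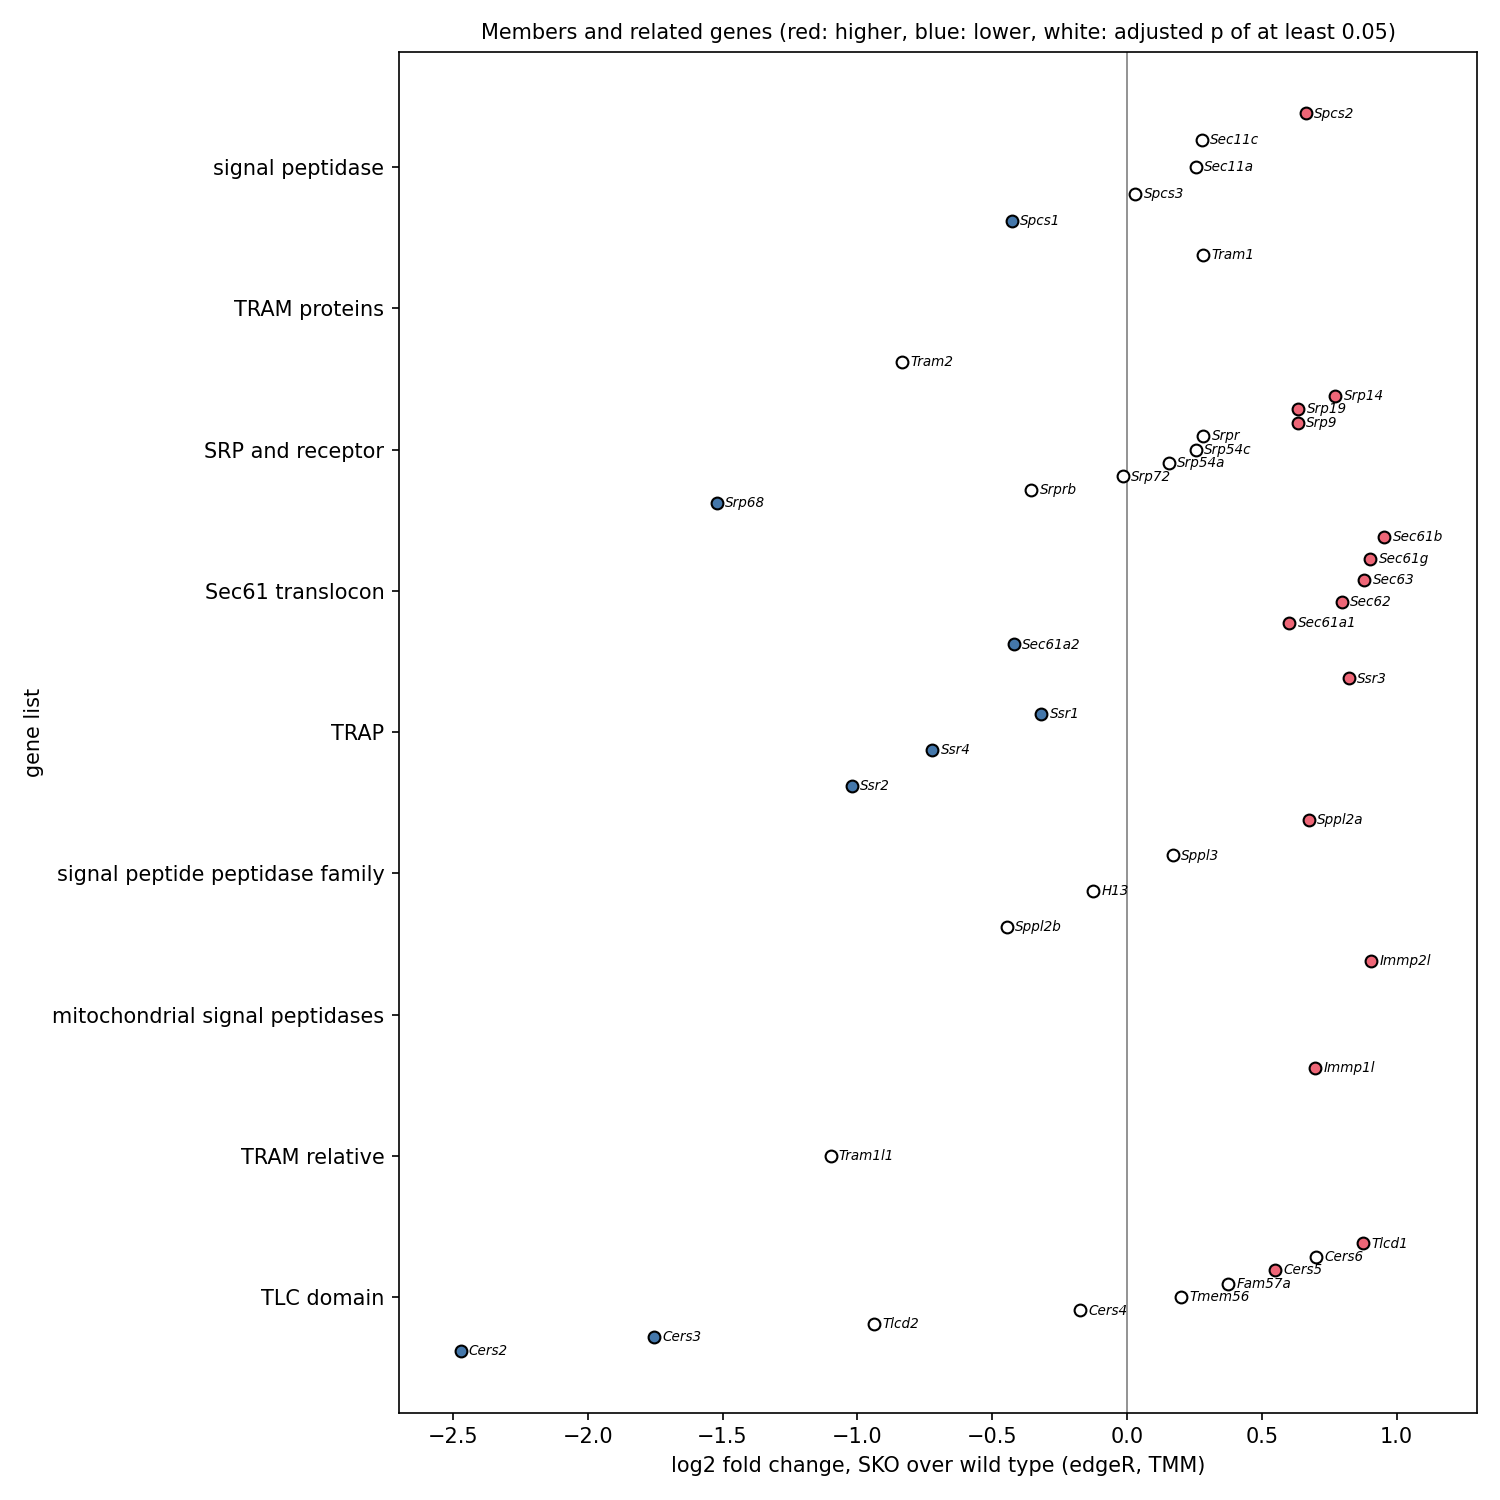
Log2 fold change, SKO over wild type (x axis), of the tested signal peptidase, TRAM and related genes by list (y axis); red points were called higher, blue points lower, and white points did not pass. Signal peptidase, Sec61 and TRAP genes each include red and blue points, with 1 of each for signal peptidase. The only blue point among the SRP genes is Srp68, the gene named in the SKO genotype.

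The genes whose profile over the 6 libraries was nearest to each member were taken from 8066 protein-coding genes with a mean of at least 5 CPM, by Pearson's correlation of log2 CPM. They were Zfp37 for Spcs1 (r = 0.997), Ckap5 for Spcs2 (0.999), Pgap1 for Spcs3 (0.974), Spdya for Sec11a (0.994), Stk33 for Sec11c (0.993), Ctr9 for Tram1 (0.972) and Hinfp for Tram2 (0.992). Ckap5, which encodes a microtubule polymerase, went from 373 ± 49.4 to 624 ± 38.5 CPM. A correlation over 6 libraries of 2 groups says little about a single gene: 1166 candidates exceeded 0.9 with Spcs2, 120 with Spcs1 and 28 with Spcs3. Stk33 was at 57.8 ± 1.48 and 60.0 ± 0.462 CPM, so its swing between groups was smaller than that of Sec11c despite the high r.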

How the data were processed

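The deposited table holds whole-number counts of reads per gene in 6 libraries, with no normalization by the authors. The submitters' processing notes name FastQC, Trim Galore 0.6.4, HISAT2 2.0.5 and the builds GRCm38 and mm10. No source used here gives the counting tool, annotation or strand setting, so overlapping genes cannot be separated. Table columns write CKO where labels write SKO and were matched by genotype and replicate number. Without molecular identifiers, count floors cover counting error only. GENCODE vM21 (GRCm38) gave symbols, positions and exon lengths, and RefSeq the promoters.

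Analysis used R 4.3.3 and edgeR 4.0.16: filterByExpr, TMM, glmQLFit and glmQLFTest with genotype as the only term, two-sided, Benjamini-Hochberg over 13474 genes. CPM are means ± SD. Simulated counts were used to test the fit. The members, lists and naming rule (all members, called genes of related lists, and the nearest gene by correlation) were chosen with earlier results of these data known. Alternatives were other scalings, filters, thresholds, DESeq2 1.42.0, limma-voom 3.58.1, a replicate block, each library left out and a loess correction (span 0.3) for GC content and length. Every pair of replicates differed beyond sampling noise (chi-square divided by its degrees of freedom, 12.0 to 22.2). Protein sequences were not used here.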

Additional observations from a re-analysis of the deposited data

How the results depend on the processing

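Spcs2 kept its direction and call under every scaling, filter, tool, replicate block and left-out library tried (log2 fold change 0.40 to 0.74). With library totals the median of all tested genes moved from −0.03 to −0.29, 1010 genes were higher and 3168 lower in place of 1901 and 1937 (24.2% of calls higher in place of 49.5%), Spcs3 stood at −0.23, Sec11a at −0.0074 and Tram2 at −1.11 with a call, so that 2 members were lower. Relative to the median of its own scaling, Spcs1 was at −0.40, Spcs2 at 0.69, Spcs3 at 0.06, Sec11a at 0.28, Sec11c at 0.31 and Tram1 at 0.31 with either. For Tram2 this was −0.80 with TMM and −0.82 with library totals. After the GC content and length correction Spcs3 was at −0.27. With the replicate block Sec11c passed (0.29; edgeR adjusted p = 0.0455), 2 members were higher, 1976 genes of all were higher and 1991 lower, and no other member's call changed. Same-numbered libraries did not deviate together (correlations 0.02, −0.05 and 0.04; 2 of 6 libraries correlated best with their own number), so the numbers were not taken as pairs. At an adjusted p under 0.01, or with at least 1.5-fold, 1 member was higher and 0 members were lower in edgeR. All tested genes were not counted at these 2 thresholds.

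Over the 6 left-out libraries, log2 fold changes ran from −0.50 to −0.30 for Spcs1, −0.12 to 0.13 for Spcs3, 0.19 to 0.34 for Sec11a, 0.16 to 0.37 for Sec11c, 0.13 to 0.41 for Tram1 and −1.15 to −0.70 for Tram2. Members called higher ranged from 1 to 3 and lower from 0 to 2: 3 higher and 0 lower without wild type replicate 3, 0 lower without SKO replicate 2 and 2 lower without SKO replicate 3. Over all tested genes, 1916 of 14066 were higher and 1851 lower without wild type replicate 3. The counts were 1361 higher and 1373 lower of 14530 without SKO replicate 2, and 1418 higher and 1449 lower of 14509 without SKO replicate 3. The log2 ratio difference of Tram2 to Tram1 ran from −1.26 to −0.999, and that of Sec11c to Sec11a from −0.04 to 0.09. The depth of Tram2, 44 to 163 counts, limits its precision.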
